A study of Homo sapiens with 32 samples.

Results

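The genes ZNF365, NXPH4, NRGN, AKAP12, MEIS3, TLE2, HAP1, CFI, SRRM3 and TNNI3 had higher transcript levels with romidepsin in each of 4 human T-cell lines, when the libraries with and without azacitidine were fitted together. These 10 genes were picked by symbol for that rise, so their romidepsin values chose them and are given as a description with no test. The deposited tables held 25559 gene symbols, of which 17801 passed the low-count filter, and all 10 genes were among those 17801. Without romidepsin CFI had at most 7 counts and SRRM3 at most 8 in any library, below the 10 that the filter asks for. These genes therefore passed it only through libraries with romidepsin. The effect of azacitidine, its dose, the change of the romidepsin effect with that dose, and the order of the lines are other contrasts than the one used in the choice, and these were tested. They share libraries with the choice, in which those with both drugs stood on the high side. The azacitidine effects are therefore also given from the libraries without romidepsin alone. Those were the low side of the choice, so these values are not free of it either.

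RNA was sequenced from 32 cultures, 8 per line, after 96 hours with romidepsin and azacitidine together, with romidepsin alone, with azacitidine alone, or with neither drug. The lines, as labelled, were HH and H9 from cutaneous T-cell lymphoma, PF382 from T-cell acute lymphoblastic leukemia and TLOm1 from adult T-cell leukemia. Romidepsin was given once, at 1.25 nM in PF382 and 1 nM in TLOm1 and H9. HH received 1.25 nM romidepsin in its combinations and 1 nM when romidepsin was given alone, so in HH the presence of azacitidine and the romidepsin dose cannot be told apart. Azacitidine was given daily at 125, 250 and 500 nM in PF382 and TLOm1 and at 50, 125 and 250 nM in HH and H9. Each combination of line and treatment had 1 library, so replication came from the lines and the doses. In these bulk cultures more cells expressing a gene and more RNA per cell cannot be told apart. Each romidepsin library had a partner of the same line and azacitidine dose without romidepsin, which gave 16 matched pairs. Library totals ran between 16175077 and 32496676 counts. A count of 3, used here as the detection floor, was worth 0.0982 to 0.196 CPM, depending on the library, where CPM is the count scaled to a library of 1000000 counts. Of 14 T-cell markers, PF382 had 14, H9 13, HH 10 and TLOm1 8 with at least 10 counts in all its libraries. TLOm1 fell below that for CD3D, CD3G, CD7, CD28, LCK and TRAT1. H9 fell below it for CD2.

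Romidepsin blocks histone deacetylases, the enzymes that take acetyl groups off histone tails, and the acetyl groups that then build up are a mark of open, transcribed chromatin. Azacitidine is a cytidine analogue that enters nucleic acids and traps DNA methyltransferases, so that methyl groups on cytosines of CpG dinucleotides are lost as cells divide. Most of the 10 genes are known from tissues other than T cells: NXPH4, NRGN, HAP1 and SRRM3 from neurons, TNNI3 from heart muscle and CFI from the liver. AKAP12 is known as a gene whose promoter is methylated in several cancers.

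The RefSeq promoter table (build GRCh38.p14, whereas the counts were made on GRCh37.p2) held 14 start sites for 9 of the 10 genes. Each entry spans 300 bases, 250 before the start and 50 after it. These sequences are shown because azacitidine acts on CpG methylation, and the 10 genes differ widely in how much CpG their starts carry. The richest and the poorest entries are given with the AKAP12 start that held the most CpG, since AKAP12 had the largest azacitidine change averaged over libraries with and without romidepsin. All 3 read 5′ to 3′ on the gene's strand, with each CpG in capitals:
TLE2, chr19:3029231-3029530, minus strand: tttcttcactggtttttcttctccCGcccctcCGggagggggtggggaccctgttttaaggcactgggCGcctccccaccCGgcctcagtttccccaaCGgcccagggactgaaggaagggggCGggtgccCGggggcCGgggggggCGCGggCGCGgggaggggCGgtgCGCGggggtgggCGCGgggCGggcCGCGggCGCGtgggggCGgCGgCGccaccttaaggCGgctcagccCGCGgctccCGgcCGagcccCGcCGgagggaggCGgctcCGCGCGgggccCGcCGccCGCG
AKAP12, chr6:151341456-151341755, plus strand: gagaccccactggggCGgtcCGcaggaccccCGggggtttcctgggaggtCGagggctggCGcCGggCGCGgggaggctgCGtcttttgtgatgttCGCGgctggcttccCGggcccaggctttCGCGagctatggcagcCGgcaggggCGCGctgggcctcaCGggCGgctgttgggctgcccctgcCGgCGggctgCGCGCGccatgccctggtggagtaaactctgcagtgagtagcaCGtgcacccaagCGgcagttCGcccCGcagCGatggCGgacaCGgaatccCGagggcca
CFI, chr4:109801950-109802249, minus strand: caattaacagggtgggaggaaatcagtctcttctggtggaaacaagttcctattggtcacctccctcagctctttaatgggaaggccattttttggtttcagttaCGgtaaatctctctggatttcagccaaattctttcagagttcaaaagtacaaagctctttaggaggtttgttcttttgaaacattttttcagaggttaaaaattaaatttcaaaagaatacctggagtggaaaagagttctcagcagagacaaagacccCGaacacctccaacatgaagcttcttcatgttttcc

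The TLE2 start held 40 CpG, a number that 7.61% of the 35116 promoters in the table reached, and the AKAP12 start held 32, which 18.9% reached. CFI held 2, and 89.0% of promoters had at least as many. The median promoter held 14. ZNF365 came close to TLE2 with 39 CpG, NRGN and SRRM3 had 30 each, the starts of HAP1 had 28 and 27, those of MEIS3 14 and 13, and TNNI3 had 11. The other TLE2 start had 12 and the other AKAP12 starts 15 and 14. The motif GGGCGG, on either strand, was present in 10 of the 14 starts and in 45.0% of all promoters. It contains a CpG itself, so these numbers are not independent. No methylation was measured in the data used here.

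ZNF365, NXPH4 and NRGN had the smallest mean rises of the 10 genes. ZNF365 encodes a zinc finger protein of the centrosome that takes part in the response to replication stress. ZNF365 in TLOm1 measured 5.24, 7.85, 10.5 and 17.4 CPM with romidepsin at 0, 125, 250 and 500 nM azacitidine, against 1.37, 2.07, 2.22 and 2.44 CPM without it. In HH it measured 4.96, 6.95, 9.63 and 10.1 CPM with romidepsin at 0, 50, 125 and 250 nM azacitidine, against 1.35, 2.16, 3.86 and 6.06 CPM without it. All 4 romidepsin values lay above all 4 values without it in TLOm1, while the groups overlapped in HH, where azacitidine alone brought ZNF365 to a level above that with romidepsin alone. The ZNF365 ranges were 0.816 to 1.19 CPM with romidepsin, against 0.163 to 0.510 CPM without it, in PF382, and 1.81 to 5.05 against 0.348 to 2.32 CPM in H9. Across lines its fitted log2 change was 1.74 ± 0.13 (SE, 16 romidepsin libraries and 16 without), and by line it was 2.02 in PF382, 2.26 in TLOm1, 1.32 in HH and 1.34 in H9. Here and below, the SE of a romidepsin change across lines leaves out the spread of the effect between lines. That SE rests on the spread within lines, where the azacitidine doses served as replicates. ZNF365 was higher with romidepsin in 16 of 16 matched pairs.

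NXPH4 encodes a neurexophilin, a secreted glycoprotein of the family that binds alpha-neurexins at synapses. NXPH4 in PF382 measured 3.22, 5.75, 12.3 and 18.1 CPM with romidepsin, against 0.531, 1.66, 2.55 and 5.49 CPM without it, in rising azacitidine dose. In H9, the line with the highest NXPH4, it measured 8.34, 10.9, 10.7 and 34.7 CPM with romidepsin, against 3.09, 4.86, 5.42 and 15.7 CPM without it. The groups overlapped in both lines because the top azacitidine dose alone exceeded romidepsin alone. In TLOm1 the ranges of 2.43 to 8.91 CPM with romidepsin, against 0.512 to 2.22 CPM without it, did not overlap, nor did the 6.27 to 17.3 against 1.35 to 6.10 CPM in HH. The NXPH4 log2 change was 1.70 ± 0.08 (SE) across lines and ran between 1.17 in H9 and 2.0 in PF382.

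NRGN encodes neurogranin, a postsynaptic protein that binds calmodulin when calcium is low. NRGN in PF382 measured 6.4, 15.4, 19.2 and 18.6 CPM with romidepsin, against 2.74, 3.39, 4.31 and 4.1 CPM without it. HH gave 10.5, 17.2, 17.5 and 15.9 CPM with romidepsin, against 3.01, 5.17, 4.94 and 4.59 CPM without it. The ranges in TLOm1 were 4.29 to 14 CPM with romidepsin, against 2.38 to 4.14 CPM without it, and in H9 2.78 to 7.22 against 1.12 to 2.18 CPM. In each of the 4 lines all NRGN values with romidepsin lay above all without it. Its log2 change was 1.68 ± 0.09 (SE) across lines, with 1.98 in PF382, 1.48 in TLOm1, 1.79 in HH and 1.47 in H9, the narrowest range between lines of the 10 genes. RefSeq lists an antisense gene, NRGN-AS1, over NRGN, and since the strand setting of the counting is not given in the sources used here, reads of the 2 cannot be told apart.

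AKAP12, also known as gravin, is a scaffold that anchors protein kinases A and C. AKAP12 in TLOm1 measured 0.0476, 0.886, 7.39 and 31.8 CPM with romidepsin, against 0.0854, 0.132, 0.741 and 3.28 CPM without it, in rising azacitidine dose. HH gave 0.337, 0.703, 3.97 and 7.8 CPM with romidepsin, against 0.131, 0.327, 0.426 and 0.21 CPM without it. In both lines romidepsin alone left AKAP12 within a few counts of the untreated library, and the highest values stood at the top dose of the combination. H9 gave 0.176, 1.26, 1.43 and 2.52 CPM with romidepsin, against 0.0773, 0.31, 0.198 and 0.217 CPM without it, and PF382 gave 0, 0.267, 0.463 and 2.63 CPM with romidepsin, against 0, 0, 0.0784 and 0.356 CPM without it. Both untreated PF382 and PF382 with romidepsin alone had 0 AKAP12 counts, which allows a level of up to the 3-count floor. The groups with and without romidepsin overlapped in all 4 lines. Even so, AKAP12 was higher with romidepsin in 14 of 16 pairs, and its log2 change across lines was 3.04 ± 0.24 (SE), with 2.91 in PF382, 3.15 in TLOm1, 3.43 in HH and 2.66 in H9.

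MEIS3 and TLE2 encode regulators of transcription. MEIS3 is a homeodomain protein of the family that pairs with PBX and HOX factors. MEIS3 in H9, where it was highest, measured 22.9, 32.6, 28.1 and 48.5 CPM with romidepsin, against 2.59, 7.21, 4.31 and 3.33 CPM without it. TLOm1 gave 0.524, 3.5, 7.09 and 21 CPM with romidepsin, against 0.384, 0.794, 1.61 and 3.73 CPM without it. In H9 the groups stood well apart, with 22.9 CPM for romidepsin alone against 2.59 CPM untreated, while in TLOm1 they overlapped and the level climbed with azacitidine on both sides. PF382 gave 0.172, 0.686, 0.733 and 2.48 CPM with romidepsin, against 0, 0, 0 and 0 CPM without it. The 4 PF382 libraries with romidepsin held 110 MEIS3 counts in all, against 0 in the 4 without, so the level was at least 37.6-fold higher (floor of 3 counts over the group). HH gave 0, 0.352, 1.49 and 4.46 CPM with romidepsin, against 0, 0.196, 0 and 0.21 CPM without it, with 0 counts both with romidepsin alone and untreated. The log2 change was 2.16 in TLOm1, 4.16 in HH and 2.94 in H9, and the mean over lines was 3.62 with PF382 at its bound. A processed copy of the gene, MEIS3P1, had 0 or 1 count in each library.

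TLE2 is a Groucho-family corepressor that is recruited by factors such as the HES proteins of the Notch pathway. TLE2 in PF382 measured 12, 14.6, 17.3 and 24.8 CPM with romidepsin, against 0.735, 0.144, 0.353 and 0.499 CPM without it. TLOm1 gave 9.77, 12.6, 12.8 and 26.1 CPM with romidepsin, against 5.08, 3.18, 2.57 and 1.82 CPM without it, and H9 gave 2.87, 3.94, 2.18 and 3.41 CPM with romidepsin, against 1.39, 0.759, 0.514 and 0.398 CPM without it. Without romidepsin, TLE2 decreased at each step of the azacitidine dose in TLOm1 and H9, whereas with romidepsin its highest TLOm1 value stood at the top dose. HH gave 4.58, 9.76, 13.4 and 17.1 CPM with romidepsin, against 0.742, 1.18, 1.01 and 1.52 CPM without it. All TLE2 values with romidepsin lay above all without it in each of the 4 lines. Its log2 change across lines was 3.22 ± 0.21 (SE), and the lines ranged between 2.05 in H9 and 5.31 in PF382.

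HAP1 encodes a partner of huntingtin that links vesicles to motor proteins. HAP1 in PF382 measured 1.2, 5.75, 8.83 and 20.3 CPM with romidepsin, against 0.0408, 0.361, 0.235 and 0.107 CPM without it. TLOm1 gave 0.429, 1.37, 3.17 and 10.3 CPM with romidepsin, against 0.171, 0.485, 0.393 and 0.355 CPM without it. The PF382 groups did not overlap, and in TLOm1 romidepsin alone stayed below 1 of the azacitidine libraries. HAP1 in HH ran between 0.145 and 3.72 CPM with romidepsin, against 0 to 0.131 CPM without it, and in H9 between 0.680 and 2.88 against 0.158 to 0.724 CPM. The log2 change was 3.65 ± 0.29 (SE) across lines, with 5.44 in PF382, 3.13 in TLOm1, 4.14 in HH and 1.89 in H9.

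CFI encodes complement factor I, the protease that inactivates cleaved complement components on cells and in plasma. CFI in TLOm1 measured 1.62, 4.91, 9.67 and 13.9 CPM with romidepsin, against 0.0427, 0.309, 0.262 and 0.311 CPM without it. The TLOm1 groups stood far apart, with a log2 change of 4.94 ± 0.30 (SE). Elsewhere CFI was lower: it reached 0.231 CPM at most in PF382, 0.232 CPM in HH and 0.859 CPM in H9, all with romidepsin, against 0.0356, 0.0436 and 0.172 CPM at most without it. The log2 changes there were 2.89 ± 0.92 in PF382, 2.63 ± 0.79 in HH and 2.62 ± 0.42 in H9 (SE), and the PF382 and HH values rest on single-digit counts per library. The mean over lines was 3.27 ± 0.33 (SE).

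SRRM3 encodes a splicing factor of neural microexons, and TNNI3 encodes cardiac troponin I, the inhibitory subunit of the thin filament. SRRM3 in TLOm1 measured 0.572, 0.443, 0.893 and 2.25 CPM with romidepsin, against 0.0427, 0.309, 0.131 and 0.355 CPM without it, and HH gave 0.145, 0.396, 0.992 and 1.53 CPM with romidepsin, against 0.0436, 0.0654, 0.0327 and 0.126 CPM without it. SRRM3 reached 1.55 CPM in PF382 and 0.443 CPM in H9 with romidepsin, against 0.107 and 0.0386 CPM at most without it. Its log2 change across lines was 3.07 ± 0.34 (SE), the widest error of the 10 genes. TNNI3 in HH measured 1.06, 2.24, 3.08 and 3.3 CPM with romidepsin, against 0.305, 0.654, 0.687 and 0.547 CPM without it, and PF382 gave 0.301, 0.762, 0.849 and 1.33 CPM with romidepsin, against 0.0408, 0.0722, 0.118 and 0.107 CPM without it. TNNI3 ran between 0.143 and 0.973 CPM with romidepsin, against 0 to 0.0872 CPM without it, in TLOm1, and between 0.838 and 1.06 against 0.181 to 0.310 CPM in H9. No TNNI3 value without romidepsin reached a romidepsin value of its line. The TNNI3 log2 change was 2.69 ± 0.19 (SE) across lines.

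**Figure D1:**
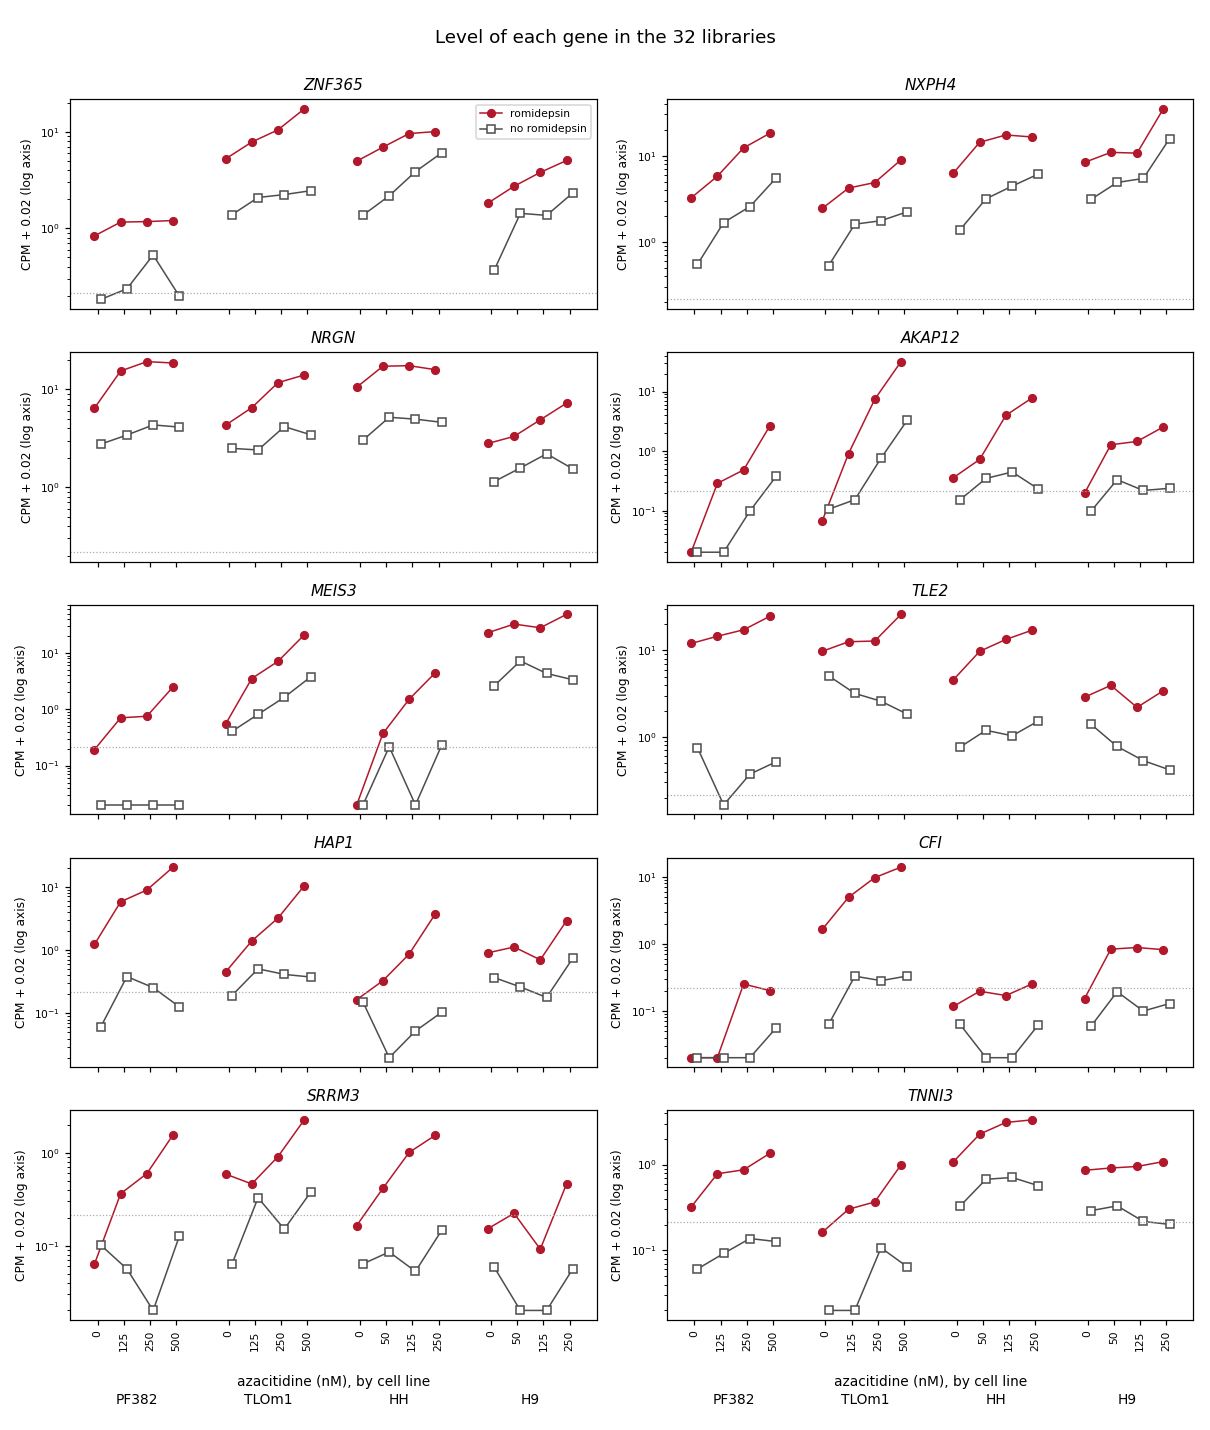
Level of each of the 10 genes in every library, as CPM plus an offset of 0.02 on a log axis, by line and azacitidine dose, for libraries with and without romidepsin. The dotted line is the highest 3-count floor, 0.196 CPM, and TLE2, NRGN and TNNI3 separate by romidepsin in all 4 lines while AKAP12 separates in none.

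Of the 160 matched pairs over the 10 genes, 154 were higher with romidepsin. ZNF365, NXPH4, NRGN, TLE2, HAP1 and TNNI3 were higher in all 16 of their pairs, as were 1.53% of all genes tested. For HAP1 this includes the HH pair without azacitidine, with 3 counts in both libraries and 0.145 CPM with romidepsin against 0.131 CPM untreated. MEIS3 and SRRM3 were higher in 15 and AKAP12 and CFI in 14. NRGN, TLE2 and TNNI3 showed no overlap of the groups in any of the 4 lines, as did 31 of all tested genes (0.174%). These counts follow from how the genes were chosen.

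In the pairs without azacitidine, a rise with romidepsin was not detected for all 10 genes in every line. With romidepsin alone, 6 of the 10 were above the untreated library in all 4 lines, against 8.83% of all genes tested. In the fit of romidepsin alone against untreated, 3 of all tested genes passed as higher (0.0169%). AKAP12 was higher in 2 lines, and MEIS3, CFI and SRRM3 in 3. The AKAP12 libraries with romidepsin alone held 12 counts in all 4 lines together, against 7 untreated, a ratio of 1.89 with an exact 95% interval of 0.686 to 5.67 that covers counting error only. For ZNF365 the sums were 273 against 76 counts, a ratio of 3.96 (3.06 to 5.18), and for TLE2 645 against 190, a ratio of 3.74 (3.18 to 4.43). The TLE2 ratio was 2.38 without PF382 and 6.81 without TLOm1. CFI had 39 counts with romidepsin alone against 3 untreated, of which TLOm1 held 34 against 1. Without TLOm1 the CFI sums were 5 against 2, a ratio of 2.75 (0.450 to 28.9). SRRM3 had 19 against 5 counts, and 7 against 4 without TLOm1, a ratio of 1.92 (0.489 to 8.96). In PF382 and TLOm1, AKAP12 exceeded its partner without romidepsin only in the pairs with azacitidine, and so did MEIS3 in HH, and CFI and SRRM3 in PF382. For these 4 genes a rise with romidepsin in every line was therefore not seen with romidepsin alone. The pairs without azacitidine that showed no rise held 0 to 2 counts per library, under the 3-count floor. With 1 library on each side, they cannot show that a rise was absent. HAP1, among the 6 genes above, had 3 counts in both HH libraries, so no rise was visible in its counts there.

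The estimated size of the rise varied between lines, and equality of the lines was not tested. The median log2 change of the 10 genes was 3.05 in PF382, 2.24 in TLOm1, 2.97 in HH and 1.99 in H9, against a median within 0.02 of 0 for all tested genes in each line. PF382 had the largest rise for 5 genes (TLE2, HAP1, MEIS3, NXPH4 and NRGN), TLOm1 for 3 (ZNF365, CFI and TNNI3) and HH for 2 (AKAP12 and SRRM3). H9 had the largest rise for none and the smallest for 7. Among the 2664 tested genes with a positive romidepsin effect in all 4 lines, H9 had the smallest effect for 43.6% and the largest for 8.60%, so H9 was also low across that wider set. PF382, with the largest rise for 5 of the 10, had the largest for 31.9% of the 2664. The romidepsin dose was 1.25 nM in PF382 and 1 nM in H9, and azacitidine reached 500 nM in PF382 and TLOm1 but 250 nM in HH and H9, so line and doses cannot be told apart.

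**Figure D2:**
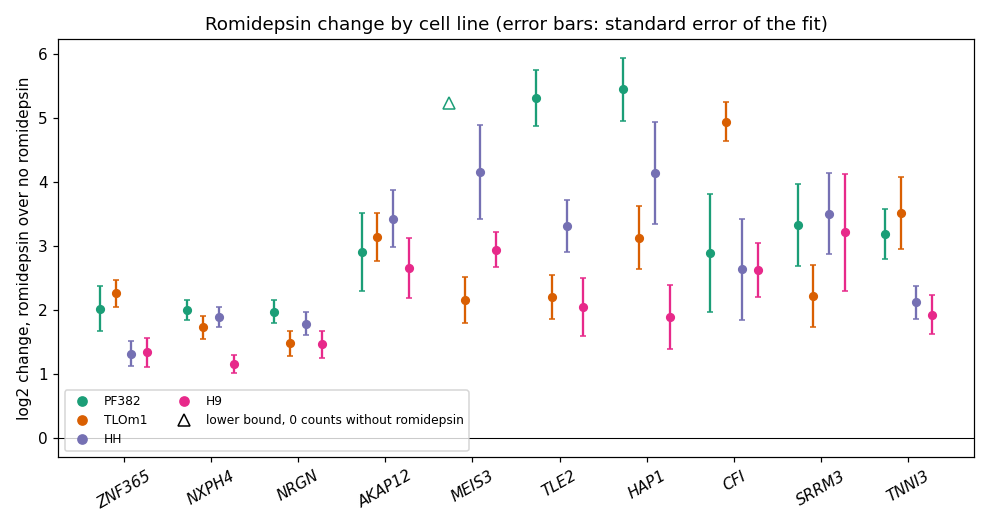
Log2 change with romidepsin for each of the 10 genes in each line, from 4 libraries with romidepsin and 4 without, with standard errors. The MEIS3 value of PF382 stands at its lower bound of 5.23, since none of the PF382 libraries without romidepsin had a MEIS3 count, and H9 has the lowest value for 7 genes.

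The matched-pair difference was larger at the high azacitidine dose than without azacitidine for 8 of the 10 genes. The share of all tested genes with a larger difference was not computed, and most pairs behind the choice held azacitidine. The count of 8 therefore cannot be read as particular to these genes. The median over the 10 genes of the mean log2 difference was 1.34 with no azacitidine, 1.76 at the low dose, 2.46 at the middle dose and 2.64 at the high dose of each line. AKAP12 showed differences of 0.33, 1.74, 2.59 and 3.43 along that series, HAP1 1.41, 2.29, 3.06 and 4.42, and MEIS3 1.27, 2.01, 3.07 and 3.80. TLE2 had 2.08, 3.30, 3.29 and 3.87, and SRRM3 0.92, 1.43, 2.32 and 2.65. ZNF365 gave 1.92, 1.62, 1.5 and 1.72, and NXPH4 2.01, 1.60, 1.65 and 1.56, so both had their largest difference without azacitidine. CFI, at 1.27, 1.78, 2.69 and 2.46, and TNNI3, at 1.5, 1.89, 1.86 and 2.62, lay between, as did NRGN at 1.25, 1.58, 1.64 and 2.03. These differences use a prior count of 2, which pulls them towards 0 where counts are few, as in several pairs without azacitidine. For romidepsin alone against untreated, the fit of counts gave 3.36 ± 0.84 for CFI and 2.38 ± 0.82 for MEIS3 (SE). Only TLE2, at 1.96 ± 0.59, was lower there than by pairs. The part of the prior count in the climb with dose was not tested. In HH the pairs with azacitidine also had the higher romidepsin dose.

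At 250 nM, the dose that all 4 lines shared, the pair difference exceeded the difference without azacitidine for 8 of the 10 genes. The excess was 2.87 ± 0.95 for AKAP12, 1.39 ± 0.38 for TLE2 and 1.30 ± 0.47 for CFI (log2, SD, n = 4 lines), positive in 4 of 4 lines each. It was 2.08 ± 1.62 for HAP1 and 2.01 ± 1.37 for MEIS3, also in 4 of 4 lines. It was negative for ZNF365, at -0.65 ± 0.66, and for NXPH4, at -0.46 ± 0.27. These values use the same pairs as the choice of the genes and the same prior count, and have no test. No share over all tested genes was computed for the count of 8 at 250 nM either. In HH the pair at 250 nM had 1.25 nM romidepsin and the pair without azacitidine 1 nM. The HH excess therefore mixes azacitidine with the romidepsin dose.

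**Figure D3:**
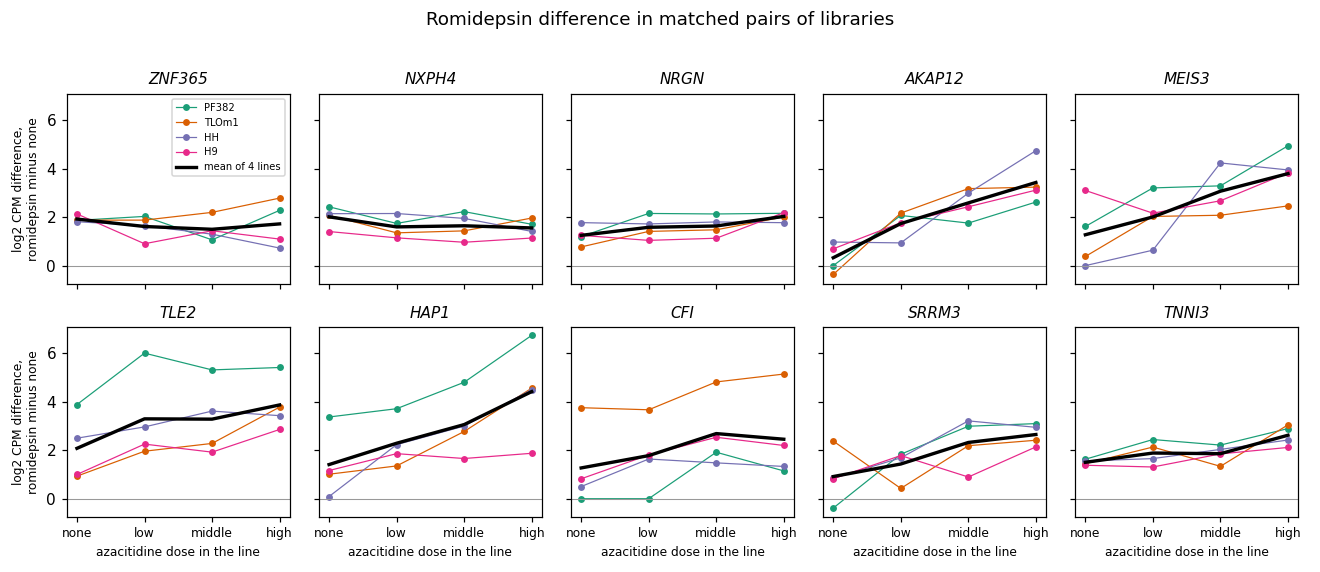
Mean log2 difference between matched libraries with and without romidepsin at each azacitidine level, none, low, middle and high, for each of the 10 genes, with the 4 lines as points. AKAP12 climbs between 0.33 and 3.43, while ZNF365 stays between 1.5 and 1.92.

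Whether the romidepsin effect changed with azacitidine dose was tested as a change per doubling of dose, which rests on the 24 libraries with azacitidine. None of the 10 genes passed, and none of the 17801 tested genes did (edgeR quasi-likelihood, Benjamini-Hochberg adjusted p under 0.05, 0% called). At an unadjusted p under 0.05, 982 genes (5.52%) but 0 of the 10 were counted. The estimate was positive for 8 of the 10 genes, against 54.1% of all genes tested. It was largest for HAP1, at 0.89 ± 0.48 per doubling (SE, adjusted p = 0.878), and for MEIS3, at 0.74 ± 0.44. It was -0.02 ± 0.18 for ZNF365 and -0.07 ± 0.18 for NXPH4. The step between no azacitidine and the low dose is not part of this test.

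Averaged over libraries with and without romidepsin, 8 of the 10 genes were called higher with 250 nM azacitidine, where 15.3% of all tested genes were called higher. In the libraries without romidepsin, 2 of the 10 were, ZNF365 and NXPH4, against 3.85% of all tested genes. The median of the 10 log2 changes was 1.66, against 0.02 for all tested genes. AKAP12 had the largest change, at 3.5 ± 0.47 (SE, edgeR adjusted p = 1.55e-05). NXPH4 rose by 1.89 ± 0.21 (adjusted p = 1.85e-06) and ZNF365 by 1.43 ± 0.20 (adjusted p = 2.95e-05), and in the libraries without romidepsin NXPH4 rose by 2.15 ± 0.32 (adjusted p = 0.000220) and ZNF365 by 1.84 ± 0.30 (adjusted p = 0.000713). NRGN rose by 0.94 ± 0.15 (adjusted p = 0.000139), with values for 250 nM azacitidine alone of 4.31, 4.14, 4.59 and 1.52 CPM in PF382, TLOm1, HH and H9, against 2.74, 2.48, 3.01 and 1.12 CPM untreated. HAP1 at 1.97 ± 0.49 (adjusted p = 0.00553), CFI at 2.04 ± 0.55 (0.0094), MEIS3 at 2.01 ± 0.55 (0.0108) and TNNI3 at 0.87 ± 0.29 (0.033) also passed. Of these, CFI had entered the test only through libraries with romidepsin, so its call is not independent of the choice. SRRM3, at 1.18 ± 0.56, did not pass (adjusted p = 0.127). TLE2, at 0.01 ± 0.49 (adjusted p = 0.993), showed the least change, with 250 nM azacitidine alone at 0.353, 2.57, 1.52 and 0.398 CPM in PF382, TLOm1, HH and H9, against 0.735, 5.08, 0.742 and 1.39 CPM untreated. The TLE2 values thus went down in 3 lines and up in HH without romidepsin. The MEIS3, CFI and TNNI3 calls each failed when 1 of several lines was left out: MEIS3 without TLOm1 or HH, CFI without TLOm1 or H9, and TNNI3 without PF382, TLOm1 or HH, with adjusted p between 0.0512 and 0.332. Without H9 the MEIS3 change was 3.22 and the TNNI3 change 1.38. In HH the combination had 1.25 nM romidepsin and romidepsin alone 1 nM, so there the averaged change mixes azacitidine with the romidepsin dose.

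In the libraries without romidepsin, AKAP12 at 2.08 ± 0.74 (SE, edgeR adjusted p = 0.0986) and NRGN at 0.63 ± 0.22 (0.0967) did not pass, so that 4 of the 10 genes were higher at an unadjusted p under 0.05, against 12.7% of all tested genes. AKAP12 had 2, 17, 5 and 6 counts with 250 nM azacitidine alone in PF382, TLOm1, HH and H9, against 0, 2, 3 and 2 untreated. MEIS3 at 1.41 ± 0.88 (0.374), CFI at 1.59 ± 0.96 (0.360), HAP1 at 1.00 ± 0.80 (0.513), TNNI3 at 0.58 ± 0.47 (0.530), SRRM3 at 0.34 ± 0.91 (0.882) and TLE2 at -0.77 ± 0.63 (0.521) did not pass either. CFI had 0, 6, 1 and 3 counts with 250 nM azacitidine alone in these lines, against 0, 1, 1 and 1 untreated. The median of the 10 changes was 1.21, against 0.02 for all tested genes.

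Per doubling of azacitidine dose, 4 of the 10 genes rose, against 10.6% of all tested genes called higher and 7.41% called lower. AKAP12 rose by 1.17 ± 0.23 per doubling (log2, SE, edgeR adjusted p = 0.00126), NXPH4 by 0.55 ± 0.09 (0.000181), SRRM3 by 0.64 ± 0.21 (0.0349) and ZNF365 by 0.34 ± 0.09 (0.0114). HAP1 at 0.66 ± 0.24 (0.0502) and MEIS3 at 0.62 ± 0.23 (0.0638) had slopes of like size but did not pass. NRGN (0.16 ± 0.07), CFI (0.21 ± 0.24), TNNI3 (0.15 ± 0.14) and TLE2 (0.08 ± 0.19) did not pass either. Without TLOm1, where AKAP12 reached 31.8 CPM, its slope was 0.67 with an adjusted p of 0.0619. In the libraries without romidepsin the NXPH4 slope of 0.58 ± 0.13 passed (adjusted p = 0.0123), as did slopes upward in 2.03% of all tested genes. There AKAP12 had 0.87 ± 0.37 (0.220) and ZNF365 0.35 ± 0.14 (0.166), and with NXPH4 these were the 3 genes with an unadjusted p under 0.05, against 9.4% of all tested genes. The SRRM3 call failed without PF382 (0.114), TLOm1 (0.0607) or HH (0.105), and the ZNF365 call without HH (0.109). SRRM3 had also entered the test only through libraries with romidepsin.

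**Figure D4:**
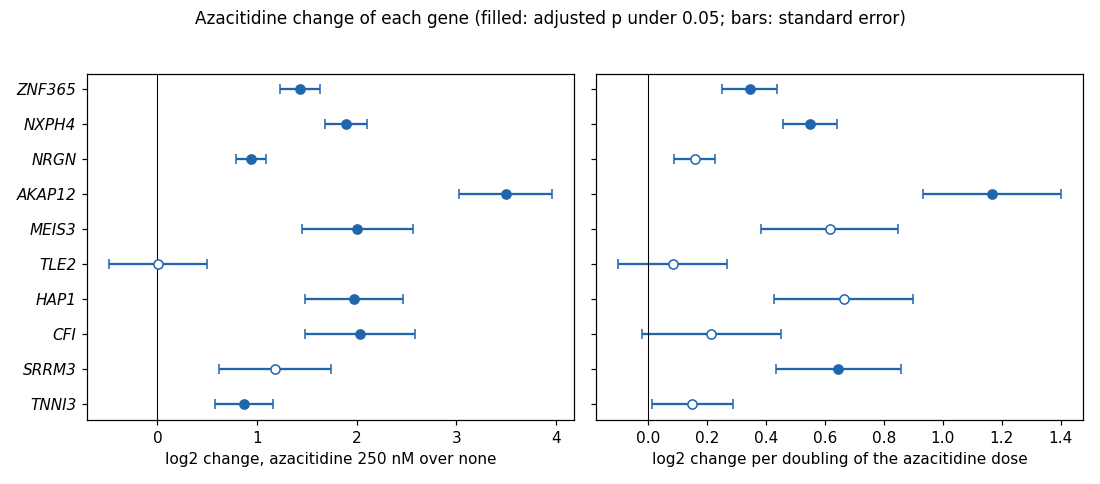
Log2 change at 250 nM azacitidine and log2 change per doubling of azacitidine dose, both averaged over libraries with and without romidepsin, for the 10 genes with standard errors. AKAP12 leads in both, at 3.5 and 1.17, and TLE2 stands near 0 in both.

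The lines differed in the level of every one of the 10 genes, averaged over treatments (edgeR F test over 4 lines, adjusted p between 1.99e-12 for ZNF365 and 0.00886 for HAP1), as they did for 98.1% of tested genes. In the fit, HH was highest for ZNF365, NRGN, AKAP12 and TNNI3, TLOm1 for TLE2, CFI and SRRM3, H9 for NXPH4 and MEIS3, and PF382 for HAP1. These orders include the romidepsin libraries, so they mix level with size of rise. Without romidepsin, mean HAP1 was 0.186 CPM in PF382, 0.351 in TLOm1, 0.0620 in HH and 0.368 in H9. Mean TLE2 without romidepsin was lowest in PF382, at 0.433 CPM. By that mean, all genes but HAP1 and AKAP12 kept their highest line. Of 30 steps between neighbours in these orders, 18 passed. CFI and SRRM3 had entered this test only through libraries with romidepsin, so their steps are not independent of the choice. MEIS3 in H9 exceeded TLOm1, the next line, by 3.0 ± 0.51 on the log2 scale (SE, adjusted p = 1.42e-05), and CFI in TLOm1 exceeded H9 by 2.61 ± 0.40 (adjusted p = 3.10e-06). Without romidepsin CFI summed to 21 counts over the TLOm1 libraries and 11 over those of H9, against 622 and 65 with it. ZNF365 in HH exceeded TLOm1 by only 0.26 ± 0.20 (adjusted p = 0.258), then TLOm1 exceeded H9 by 1.05 ± 0.21 and H9 exceeded PF382 by 2.04 ± 0.23, both past the threshold. AKAP12 in HH, TLOm1 and H9 could not be ordered, and PF382 lay 2.97 ± 0.49 below H9 (adjusted p = 7.70e-06). NXPH4 and TNNI3 passed at each of their 3 steps, although the NXPH4 step between H9 and HH did not pass with limma-voom (adjusted p = 0.100) or without TLOm1 (0.0523). For HAP1 no step passed with edgeR, while PF382 against H9 (0.0256) and TLOm1 against HH (0.0453) passed with limma-voom. For TLE2 the HH to H9 step alone passed, at 1.32 ± 0.43 (adjusted p = 0.00829). In the same fit the share of all tested genes that differed was 81.3% for PF382 against TLOm1, 79.1% for PF382 against HH, 78.7% for TLOm1 against H9, 77.8% for HH against H9, 75.7% for PF382 against H9 and 71.5% for TLOm1 against HH.

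The rise was set beside the starting level of each gene in each line. Of 40 untreated values, 10 genes in 4 lines, 15 had at least 10 counts, 18 had 3 or fewer, and 5 were 0. The mean rise in the 3 pairs with azacitidine had a median of 2.19 (range 1.02 to 5.09, log2) in the 25 cases with fewer than 10 untreated counts, and a median of 1.89 (range 1.08 to 5.58) in the 15 cases with at least 10. Across the 40 values, the untreated level and that rise had a Pearson r of -0.20 and a Spearman rho of -0.20, or -0.25 and -0.23 after the mean of each gene was removed. The 40 points share 10 genes and 4 untreated libraries, so this is a description. The rise here uses a prior count of 2, which shrinks it most where counts are few. CFI in PF382 had 1.02 here against 2.89 in the fit of all 4 pairs, and SRRM3 in H9 1.61 against 3.21. TLE2 in PF382, with more counts, had 5.58 against 5.31. Whether the rise depends on the starting level is therefore not settled by these values. The line with the highest untreated level had the smallest rise for 2 genes and the largest for 3.

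The genes surrounding these 10 in function moved with romidepsin to different degrees. Of all tested genes, 20.7% were called higher and 18.5% lower with romidepsin. The lists were put together from textbook knowledge with earlier results in view, and no test of a list was made. The romidepsin p-values of single genes leave out the spread of the effect between lines, so they hold for these 4 lines only. Among 32 tested neuronal genes known to be repressed by REST, the silencer of neuronal genes that works through histone deacetylases, 17 rose and 0 fell, with a median log2 change of 0.58, against 0.02 for all tested genes. TUBB3, a neuronal tubulin, rose by 1.73 ± 0.11 (SE, edgeR adjusted p = 1.90e-09, higher in 15 of 16 pairs, and by 0.69 without PF382), and SNAP25, a protein of synaptic vesicle release, rose by 1.45 ± 0.14 (adjusted p = 8.55e-08, 16 of 16). Of 19 genes of the REST complexes 6 rose and 5 fell, among them REST itself, which fell by 0.17 ± 0.03 (adjusted p = 0.000448) and was higher with romidepsin in 2 of 16 pairs. Markers of neurons summed to between 7.80 and 199 CPM with romidepsin (median 60.5), against 4.09 to 171 CPM without it (median 46.4), with 3 of 6 tested markers called higher. Epithelial markers summed to between 0.578 and 219 CPM with romidepsin (median 92.4), against 0.916 to 186 CPM without it (median 45.1), with 3 of 5 called higher. Fibroblast markers had medians of 15.3 against 6.95 CPM with 1 of 6 called higher, myeloid markers 8.58 against 4.85 CPM with 1 of 6, and B-cell markers 8.80 against 6.18 CPM with 2 of 6. The T-cell markers had medians of 2015 against 2137 CPM, with 6 of 14 called higher and 4 lower. The part of any of these markers in the rises of the 10 genes was not tested.

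Of 14 textbook targets of histone deacetylase inhibitors, 8 rose and 1 fell, with a median of 0.79. GSN, the actin-severing protein gelsolin, rose by 1.30 and CDKN1A, the cell cycle inhibitor p21, by 0.98. Among 19 partners of NXPH4 and NRGN at the synapse, 5 rose and 3 fell. NRXN2, a neurexin, rose by 1.95 ± 0.14 (adjusted p = 7.48e-09) with 12 of 16 pairs higher, or by 1.04 without HH, and NLGN2, a neuroligin, by 0.83 ± 0.12. Among 18 other anchoring proteins and subunits of protein kinase A, 7 rose and 5 fell, with AKAP6 up by 0.74 ± 0.10 and AKAP9 down by 0.25 ± 0.04. Of 12 homeodomain genes of the MEIS and PBX group, 3 rose and 4 fell, with HOXA10 up by 1.56 ± 0.17, in 11 of 16 pairs and by 1.00 without HH, and TGIF2 down by 0.28 ± 0.03. Of 20 Groucho and Notch pathway genes, 7 rose and 1 fell, among them HES7, a Notch-linked repressor, up by 1.16 ± 0.11 in 16 of 16 pairs.

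In the remaining lists the counts were 4 up and 7 down of 16 for huntingtin-associated transport, 5 up and 2 down of 19 for complement, 3 and 3 of 14 for neural microexon splicing, and 1 and 6 of 14 for centrosome and replication stress partners of ZNF365. In the complement list C3, the central component, rose by 2.43 with 12 of 16 pairs higher, and CFD, which activates the alternative pathway, by 1.13 in 16 of 16 pairs, or by 0.43 without PF382. Of 15 troponin and sarcomere genes 5 rose and 2 fell, with TNNT1, slow skeletal troponin T, up by 2.08 ± 0.12 (adjusted p = 1.12e-09) in 16 of 16 pairs. Of 7 markers of heart muscle, MYH7, TNNT2, ACTC1, MYL2 and MYBPC3 had fewer than 10 counts in every library, and 0 of the 2 tested passed. Their sum was 0.472 to 5.25 CPM with romidepsin, against 0.367 to 6.24 CPM without it.

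With 250 nM azacitidine, 15.3% of all tested genes were called higher and 10.2% lower. The REST-repressed neuronal genes counted 5 up and 1 down, the histone deacetylase inhibitor targets 5 and 0, the synaptic partners 5 and 3, and the Groucho and Notch genes 5 and 2. UNC13A, a vesicle priming protein, rose by 1.96 ± 0.34 (adjusted p = 0.000235). In the protein kinase A list 0 rose and 3 fell, namely PRKAR1B, AKAP3 and AKAP13. The other lists had 3 up and 3 down for the REST complexes, 2 and 1 for the homeodomain genes, 4 and 2 for huntingtin-associated transport, 4 and 2 for complement, 1 and 2 for microexon splicing, 4 and 1 for the sarcomere and 3 and 2 for the ZNF365 partners.

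The 10 genes moved together across libraries. After the mean of each line was removed, the 45 pairs among them had a Pearson r of log2 CPM between 0.54 and 0.95 (median 0.79, 32 libraries). The libraries share their treatments and the genes were chosen for a common rise, so this is a description. NRGN and TNNI3 were each other's closest gene of all 17801, at 0.95. The genes closest to MEIS3 were SEMA6B (0.95), RAB11FIP5 (0.93) and TP53I11 (0.92), and those closest to TLE2 were SRCIN1 (0.94), SPTBN4 and FGFRL1 (both 0.92). AKAP12 was nearest to ITGB1, TEAD3 and PLIN5 (0.93 each), HAP1 to VWA5B2 (0.93), AIM1L and NGFR (0.92 each), and CFI to WBSCR28 (0.92), DMKN (0.89) and RAP2B (0.87). NXPH4 was nearest to CREG1, ANTXR2 and PRPF40B (0.92 each), ZNF365 to SMPDL3B (0.89), NRGN and SLC39A14 (0.88 each), and SRRM3 to LRP1 (0.90), CACNA1G (0.89) and PIK3AP1 (0.88). LRP1, a lipoprotein receptor whose gene neighbours NXPH4, was also second closest to TNNI3, at 0.94.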

How the data were processed

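Each library came as 1 deposited table of unnormalized read counts by gene symbol. Per the submitters' processing notes, the genome build was GRCh37.p2, and the tools named were limma, STAR and DESeq2. Which counter, annotation and strand setting were used is not given in the sources used here. Libraries were stranded mRNA libraries, per the labels' protocols.

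Counts were fitted with edgeR 4.0.16 (quasi-likelihood, robust, TMM scaling) in R 4.3.3 after a filter on low counts (filterByExpr, at least 10 counts in the smallest group and 15 in all), with Benjamini-Hochberg adjustment over 17801 genes and a threshold of 0.05. CPM values are counts scaled to a library of 1000000 after TMM. Matched-pair differences used log2 CPM with a prior count of 2. Standard errors are the log2 change over the root of the F value. The scripts were tested on simulated data.

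Azacitidine at 250 nM was tested with treatment and line as terms (19 residual degrees of freedom), its slope per doubling with the dose centred within each line (23), and romidepsin with a term for each line and azacitidine dose (12). The line is the origin of the cells and served as the block: deviations from group means correlated at 0.86 to 0.97 in 60 library pairs of the same line and at -0.54 to 0.12 in 180 pairs of different lines. No library was a duplicate of another. Nothing in the labels says that cultures were independent repeats, so p-values measure the spread between these cultures only.

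The 10 genes and the gene lists were chosen with earlier results of these data known. From each list the text names genes among the 4 with the smallest adjusted p in a comparison, and for each of the 10 genes the 3 most alike; a few list genes are not reported here. Alternatives were median-of-ratios scaling, no filter or a stricter one (1 CPM in 8 libraries), limma-voom 3.58.1, DESeq2 1.42.0, each line left out, no block, other dose settings and, chosen after seeing the data, azacitidine in the libraries without romidepsin. Intervals on sums of counts are exact at 95% and cover counting error only.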

Additional observations from a re-analysis of the deposited data

Results flagged for a closer look

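Within 70 groups of 4 libraries, or of 4 line effects, 15 held a line far from the others by Dixon's test. Chance alone gives about 1 in 20 groups where values are independent and normally distributed. Here the same lines recur across groups and many CPM rest on few counts, so 15 of 70 cannot be read against that rate.

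MEIS3 in H9 stood above the other lines with 22.9 CPM for romidepsin alone, 28.1 and 48.5 CPM for romidepsin with 125 and 250 nM azacitidine, and 2.59 CPM untreated. CFI in TLOm1 stood above the others with 1.62 CPM for romidepsin alone and 9.67 CPM for romidepsin with 250 nM azacitidine, and its romidepsin effect of 4.94 (log2) was also apart. HAP1 in PF382 was high for romidepsin with 125 nM (5.75 CPM) and 250 nM azacitidine (8.83 CPM). TLE2 was low in H9 for romidepsin with 125 nM azacitidine (2.18 CPM) and high in untreated TLOm1 (5.08 CPM). NRGN was low in H9 with 250 nM azacitidine, at 1.52 CPM. The other cases rest on few counts: SRRM3 in TLOm1 with 125 nM azacitidine (0.309 CPM) and in untreated PF382 (0.0816 CPM), and CFI in untreated PF382 (0 CPM), listed as the low one since the other lines had 1 count each.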

How the results depend on the processing

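Counts of genes called stayed within 1.5 times of the reported one under other scalings, filters and tools. Leaving out 1 line gave 3135 to 3646 genes for 250 nM azacitidine (4537 reported), 5680 to 6901 for romidepsin (6985), 16324 to 16997 for the line (17468) and 0 for the change of the romidepsin effect with dose. The dose slope moved most, between 1473 without TLOm1 and 3730 without H9 (3213 reported), with 1920 without PF382. Without the replicate block for line, 250 nM azacitidine called 86 genes, the dose slope 5 and romidepsin 29, and every call among the 10 genes named here for azacitidine was lost. Romidepsin alone against untreated called 3 genes. In the libraries without romidepsin, an alternative chosen after seeing the data, 250 nM azacitidine called 1066 genes and the dose slope 530. Of the 10 genes, 6 of the 8 calls at 250 nM and 3 of the 4 slope calls were lost there, and TLE2 had -0.77 at 250 nM and a slope of -0.13, CFI a slope of -0.00345 and TNNI3 one of -0.0841.

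Directions turned in the following cases, at reported values near 0 for TLE2, ZNF365 and NXPH4. For TLE2 without HH the azacitidine change was -0.43 and the slope -0.00446, with 0.25 and 0.19 at the other end without H9. The change of the romidepsin effect with dose was 0.17 for ZNF365 and 0.0471 for NXPH4 without HH, against -0.16 for each without TLOm1, and for SRRM3 it was -0.0262 without TLOm1 and 0.73 without H9. TLE2 in PF382 minus HH was -0.0785 with DESeq2, -0.0879 without TLOm1 and -0.0245 without H9, and HAP1 in H9 minus TLOm1 was -0.13 with limma-voom. With romidepsin alone against untreated, AKAP12 in TLOm1 was -0.37 (reported 3.15) and SRRM3 in PF382 -0.39 (reported 3.32), each from libraries with 1 or 2 counts. The cause was not tested.

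Beside the losses given in the results, other lost calls were MEIS3 with limma-voom (adjusted p = 0.0845) and TNNI3 with DESeq2 (0.0686) at 250 nM. SRRM3 passed at the highest dose of each line (2.06, adjusted p = 0.000947). That change averages in the libraries with both drugs, and SRRM3 had entered the test only through libraries with romidepsin. The SRRM3 call is thus not independent of the choice. The HAP1 slope passed with DESeq2 (0.0271), median-of-ratios scaling (0.0481) or without PF382 (0.024), the MEIS3 slope without H9 (0.00724) and the NRGN slope without HH (0.0436). Between lines, the MEIS3 step from HH to PF382 was lost under 5 alternatives (adjusted p 0.0536 to 0.175) and the SRRM3 step from HH to PF382 under 3 (0.0541 to 0.0888). The HAP1 step from TLOm1 to HH passed with DESeq2 (0.0218), and that of TLE2 from TLOm1 to PF382 with DESeq2 (0.0143) or the stricter filter (0.0429). Depth limits the low values: 18 of 40 untreated values had 3 counts or fewer.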

Other observations

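Several genes next to the 10 on the chromosome also moved with romidepsin. The neighbours were looked up in RefSeq by order alone and were chosen after their values were seen, and of 20 that were tested 12 rose and 2 fell (edgeR), against 20.7% and 18.5% of all tested genes. Both neighbours of TNNI3 rose in 16 of 16 matched pairs: TNNT1 by 2.08 ± 0.12 and C19orf51 by 2.10 ± 0.22 (log2, SE, adjusted p = 1.12e-09 and 2.08e-06). TNNT1 encodes slow skeletal troponin T, and its gene lies beside that of TNNI3.

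LRP1, the neighbour of NXPH4, rose by 1.69 ± 0.17 (adjusted p = 1.38e-06) in 16 of 16 pairs, whereas SHMT2 on the other side fell by 0.12 ± 0.04. VSIG2 next to NRGN rose by 2.11 ± 0.49 in 12 of 16 pairs, SLC8A2 next to MEIS3 by 1.61 ± 0.27 in 14, and TLE6 next to TLE2 by 0.95 ± 0.16 in 12. The neighbours of AKAP12 did not follow it: MTHFD1L fell by 0.30 ± 0.05 and ZBTB2, at 0.03 ± 0.05, did not pass. SLC8A2 also rose with 250 nM azacitidine, by 1.77 (adjusted p = 0.00679), as did LRP1, by 0.80 (adjusted p = 0.00577).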
